A study of Mus musculus with 12 samples.

Results

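The genotype by stimulation term is the difference between the effect of Pdap1 loss in one B cell culture, given LPS and IL-4, and its effect in another, given LPS, BAFF and TGFβ. It was taken from all 12 of the 12 RNA-seq libraries of the series, since 3 control mice and 3 Pdap1-deficient mice each gave a culture of both kinds. Both genotypes carried 1 copy of the same Cre allele, which is active in B lineage cells, and the Pdap1-deficient mice were in addition homozygous for the floxed allele *Pdap1F/F*, from which Cre removes an exon. All mice were on the C57BL/6 background and were age-matched adults of both sexes, and the controls were littermates or inbred mice. Resting splenic B cells were enriched by removing CD43+ cells and harvested after 48 h. Both cultures held 5 µg/ml LPS, to which the first (LPS-IL-4) added 5 ng/ml IL-4 and the second (LPS-BAFF-TGFβ) added 10 ng/ml of BAFF together with 2 ng/ml of TGFβ. The comparison asks which genes respond to loss of Pdap1 more in one culture than in the other. For each gene the term is (Pdap1-deficient minus control with LPS-IL-4) minus (Pdap1-deficient minus control with LPS-BAFF-TGFβ), on the log2 scale. A term above 0 therefore means that the effect of Pdap1 loss was more positive with LPS-IL-4, and a term below 0 that it was more positive with LPS-BAFF-TGFβ. The same quantity can be read per mouse, as the log2 level in the LPS-IL-4 culture minus that in the LPS-BAFF-TGFβ culture, set against genotype.

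LPS activates B cells through Toll-like receptor 4. IL-4 signals through STAT6 and directs class switching to IgG1 and IgE, whereas TGFβ signals through SMAD proteins and, with BAFF, a survival factor of B cells, favours switching to IgG2b. Pdap1 is a small phosphoprotein that supports class switching. Atf4 is the transcription factor of the integrated stress response; it raises genes for amino acid synthesis, amino acid uptake and tRNA charging, often through a composite C/EBP-ATF element in their promoters.

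Total counts were between 4579793 and 15869143 in 11 libraries and 69500640 in the LPS-BAFF-TGFβ library of control mouse 1. *Pdap1*, the targeted gene, was at 93.0, 91.4 and 97.8 counts scaled to library size (CPM) in the LPS-IL-4 libraries of control mice 1 to 3, and at 199, 80.3 and 100 CPM in their LPS-BAFF-TGFβ libraries. In the Pdap1-deficient mice it was at 23.3, 27.2 and 29.9 CPM with LPS-IL-4 and at 26.4, 26.0 and 23.0 CPM with LPS-BAFF-TGFβ, below every control library. Its term was 0.41 ± 0.36 (SE, adjusted p = 0.911), and without control mouse 1, whose LPS-BAFF-TGFβ library held the highest level, the term was 0.02. Counts of the whole gene include exons outside the deleted one. The 6 B cell markers summed to between 2170 and 3460 CPM in every library, whereas 10 T cell markers summed to at most 59.4 CPM. The 9 myeloid markers summed to between 9.26 and 29.0 CPM in the control libraries, to 11.9 and 15.3 CPM in the cultures of Pdap1-deficient mouse 1, to 328 and 568 CPM in those of mouse 2 and to 39.8 and 83.9 CPM in those of mouse 3. *Xist* and the Y-linked gene *Ddx3y* gave the same sex for both cultures of each of the 6 mice. Control mice 1 and 3 shared a sex, as did Pdap1-deficient mice 2 and 3, so sex does not tell these apart. The labels name separate mice, so the spread between libraries of a group includes that between animals.

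No gene passed an adjusted p under 0.05 for the term, that is 0% of the 15794 genes tested with the mouse as a block in edgeR's quasi-likelihood F test, and the smallest adjusted p was 0.135. Of all genes tested, 8423 (53.3%) had a term above 0 and 7371 a term below 0. At an unadjusted p under 0.05, 601 genes (3.81%) had a term above 0 and 382 (2.42%) a term below 0. DESeq2's Wald test with the same block gave 494 genes at an unadjusted p under 0.05 and called 8 genes, limma trend and limma voom called 0, with 996 and 1039 genes at an unadjusted p under 0.05. Without control mouse 1, edgeR called 197 genes, 80 above 0 (0.507%) and 117 below 0 (0.742%), and without each of the other 5 mice in turn it called 0. The 3 Pdap1-deficient mice all lay above the 3 controls in the difference between their cultures for 1111 genes (7.03%) and all below for 952 genes (6.03%). For a single gene, 3 mice against 3 cannot give an exact two-sided p under 0.1. The genes below are therefore described by size, sign and consistency per mouse, and none is called different between the cultures by the blocked edgeR test of all 12 libraries. For reference, within LPS-IL-4 cultures 421 genes rose (2.79%) and 320 fell (2.12%) on loss of Pdap1 of 15074 tested, and within LPS-BAFF-TGFβ cultures 64 rose (0.455%) and 1 fell (0.0071%) of 14079 tested.

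Among the genes with the smallest p that kept their sign with each mouse left out, 14 are described with a term above 0 and 15 with a term below 0. Their terms were between 0.76 and 2.61 above 0 and between -2.80 and -0.55 below 0. In controls, all 15 genes below 0 were higher with LPS-IL-4, and 12 of the 14 above 0 were lower there. In 26 of the 29 the difference between cultures was smaller in Pdap1-deficient mice. The term is the Pdap1-deficient difference minus the control difference, so a choice by the term favours this pattern. In each of these 29 genes the mice of the 2 genotypes did not overlap, which follows in part from their being chosen by p. Without control mouse 1, all of them but *Dab2ip*, *Gmfg* and *Atp11a* passed edgeR's adjusted p under 0.05, with values between 0.000324 (*Clic4*) and 0.0462 (*Dusp4*). The genes were chosen by p with the same mice, so this is no independent test. Of the 14 genes with a term above 0, 10 rose with LPS-IL-4 and 0 were called with LPS-BAFF-TGFβ. Of the 15 with a term below 0, 7 were called in each culture. *Cth*, *Vegfa*, *Asns*, *Chac1* and *Slc1a4* rose in both. *Net1* and *Focad* fell with LPS-IL-4 only, and *Clic4* and *Tmem26* rose with LPS-BAFF-TGFβ only. Over all genes tested, 2.79% rose and 2.12% fell with LPS-IL-4, and 0.455% and 0.0071% with LPS-BAFF-TGFβ. The genes were chosen by p from the same libraries, so these counts are a description only.

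**Figure D1:**
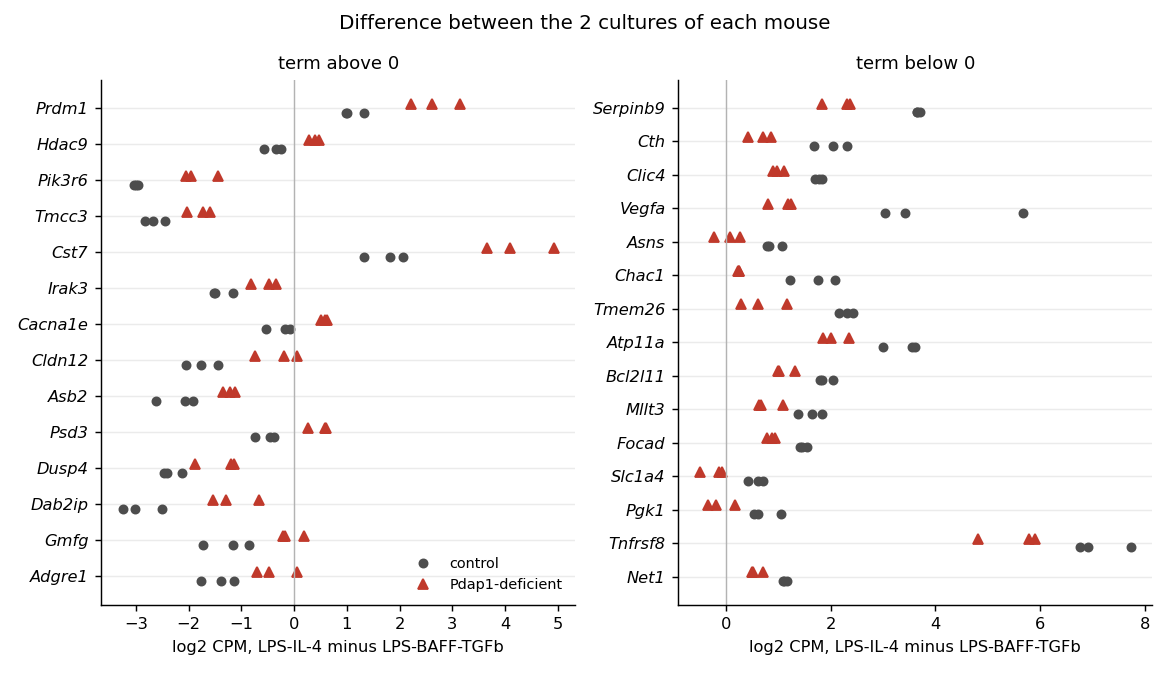
Difference in log2 CPM between the LPS-IL-4 and the LPS-BAFF-TGFβ culture of each mouse for the 14 named genes with a term above 0 (left) and the 15 below 0 (right), with 1 grey circle per control mouse and 1 red triangle per Pdap1-deficient mouse. In each gene the 3 triangles lie on one side of the 3 circles, for *Prdm1* at 2.21 to 3.14 against 0.99 to 1.32 and for *Clic4* at 0.89 to 1.11 against 1.71 to 1.84.

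The 5 lists of stress factors, amino acid synthesis, folate enzymes, amino acid transporters and tRNA synthetases held 97 of the genes tested (0.614%) and 4 of the 15 named genes with a term below 0. These were *Asns*, which makes asparagine, *Cth*, which makes cysteine from cystathionine, *Chac1*, which degrades glutathione, and the neutral amino acid transporter gene *Slc1a4*. The paper names these 4 genes from the same libraries, and the lists were chosen with earlier results of these data known. The shares are therefore a description and no test of enrichment. *Vegfa*, a vascular growth factor gene that Atf4 is known to induce, is in the list of cytokines and growth factors and was set beside these 4 genes after its values were seen. All 5 rose on loss of Pdap1 in both cultures, with a larger fold change with LPS-BAFF-TGFβ, and the control level was lower in that culture. *Asns* was at 56.2, 53.2 and 50.4 CPM in control and 530, 288 and 468 CPM in Pdap1-deficient LPS-IL-4 libraries. With LPS-BAFF-TGFβ it was at 26.7, 31.0 and 28.4 CPM in controls and 441, 337 and 444 CPM in Pdap1-deficient libraries. The Pdap1-deficient levels of *Asns* thus overlapped between the cultures, and the control levels did not. Its log2 fold change was 3.0 ± 0.23 (SE, edgeR adjusted p = 0.000683) with LPS-IL-4 and 3.84 ± 0.15 (adjusted p = 8.64e-06) with LPS-BAFF-TGFβ, and the term was -0.86 ± 0.15 (adjusted p = 0.265).

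*Chac1*, at lower counts, overlapped between the cultures in neither genotype and was higher with LPS-IL-4 in both. It was at 3.21, 4.05 and 4.03 CPM in control and 37.7, 32.2 and 33.9 CPM in Pdap1-deficient LPS-IL-4 libraries, and at 1.29, 0.852 and 1.10 CPM in control and 31.6, 27.5 and 28.6 CPM in Pdap1-deficient LPS-BAFF-TGFβ libraries. Its term was -1.43 ± 0.26 (SE), and between -1.80 and -1.26 with each mouse left out. *Cth* had a term of -1.44 ± 0.21 (edgeR adjusted p = 0.135) from log2 fold changes of 2.71 (LPS-IL-4) and 4.09 (LPS-BAFF-TGFβ). It was at 12.8, 11 and 9.64 CPM in control and 101, 39.4 and 79.7 CPM in Pdap1-deficient LPS-IL-4 libraries. In LPS-BAFF-TGFβ libraries *Cth* was at 2.48, 2.55 and 2.92 CPM in controls and 55.3, 29.3 and 48.5 CPM in Pdap1-deficient mice, so that Pdap1-deficient mouse 2 was lowest of its genotype in both cultures. *Slc1a4* rose by 1.6 on the log2 scale with LPS-IL-4 and by 2.41 with LPS-BAFF-TGFβ, and its term was -0.82 ± 0.17.

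The largest term of the 29 was that of *Vegfa*, at -2.80 ± 0.43 (SE, edgeR adjusted p = 0.202). *Vegfa* was at 7.33, 7.01 and 7.01 CPM in control and 68.5, 34.7 and 58.8 CPM in Pdap1-deficient LPS-IL-4 libraries. With LPS-BAFF-TGFβ it was at 0.556, 0 and 0.731 CPM in controls and 28.7, 19.8 and 25.9 CPM in Pdap1-deficient libraries. The control LPS-BAFF-TGFβ libraries held 35, 0 and 6 reads of *Vegfa*, and 0 reads in that of control mouse 2 allow up to 0.373 CPM, so the size of this term rests on few reads. With each mouse left out it was between -3.12 and -2.49.

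**Figure D2:**
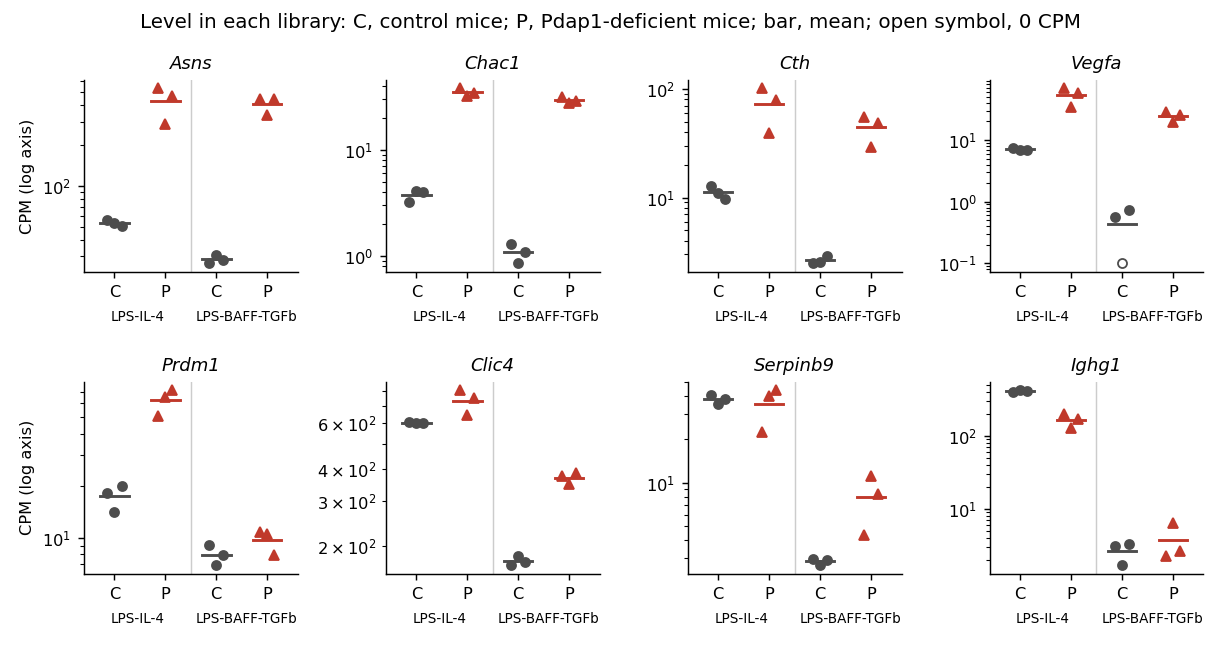
Level of 8 genes in each library in CPM on a log axis, with grey circles for control (C) and red triangles for Pdap1-deficient (P) mice and a bar at the group mean, in LPS-IL-4 cultures (left side of each panel) and LPS-BAFF-TGFβ cultures (right side). For *Asns* and *Chac1* the control mean was lower with LPS-BAFF-TGFβ (28.7 against 53.3 CPM and 1.08 against 3.76 CPM), while the Pdap1-deficient means were 407 and 429 CPM and 29.2 and 34.6 CPM.

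The promoters of these genes are shown because the C/EBP-ATF element is the sequence through which Atf4 is known to act on several of them. Promoter windows of 300 bases (250 before to 50 after the RefSeq transcription start, GRCm38.p6) were searched on both strands for TGATGNAA. Of the 25 stress response genes named by the lists of stress factors, amino acid synthesis, folate enzymes, amino acid transporters and tRNA synthetases, 21 had a window, and *Cth*, *Lars*, *Slc6a6* and *Slc7a5* had none. The element was in the window of 8 of the 21 genes and in 8 of their 27 windows (29.6%), against 1304 of all 32851 windows (3.97%). Those genes were *Aars*, *Asns*, *Chac1*, *Gars*, *Slc1a4*, *Trib3*, *Vldlr* and *Yars*. The windows of 4 of them with a term below 0 follow in the direction of transcription, with the element in capitals.
Asns, chr6:7693160-7693459, minus strand: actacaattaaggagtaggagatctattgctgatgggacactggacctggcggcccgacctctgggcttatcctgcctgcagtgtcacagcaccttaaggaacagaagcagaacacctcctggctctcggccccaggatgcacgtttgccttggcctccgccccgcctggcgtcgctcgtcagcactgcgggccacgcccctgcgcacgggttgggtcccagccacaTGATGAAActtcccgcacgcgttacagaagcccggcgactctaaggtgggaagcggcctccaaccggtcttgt
Chac1, chr2:119350992-119351291, plus strand: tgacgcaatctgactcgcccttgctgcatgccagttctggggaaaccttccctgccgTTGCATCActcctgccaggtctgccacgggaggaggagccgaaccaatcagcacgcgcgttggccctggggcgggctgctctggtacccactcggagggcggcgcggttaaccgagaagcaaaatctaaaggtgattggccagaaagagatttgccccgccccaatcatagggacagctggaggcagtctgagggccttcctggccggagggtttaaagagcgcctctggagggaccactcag
Slc1a4, chr11:20332664-20332963, minus strand: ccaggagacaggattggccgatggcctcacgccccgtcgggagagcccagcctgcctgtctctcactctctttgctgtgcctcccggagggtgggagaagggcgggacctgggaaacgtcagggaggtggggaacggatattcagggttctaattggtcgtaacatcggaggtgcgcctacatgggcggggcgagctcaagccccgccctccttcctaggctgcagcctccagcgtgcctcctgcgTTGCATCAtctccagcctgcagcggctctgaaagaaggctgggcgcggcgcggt
Trib3, chr2:152344011-152344310, minus strand: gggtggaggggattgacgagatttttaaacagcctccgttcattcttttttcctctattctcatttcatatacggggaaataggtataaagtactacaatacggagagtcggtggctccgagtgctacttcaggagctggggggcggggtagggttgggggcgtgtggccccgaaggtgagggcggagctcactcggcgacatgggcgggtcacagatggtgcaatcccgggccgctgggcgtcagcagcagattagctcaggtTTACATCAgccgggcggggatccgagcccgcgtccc
A match of these letters is a description of the window and was not tested for binding.

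Among all lists, amino acid synthesis had the lowest median term, -0.22, against 0.02 over all genes tested. Of its 23 genes tested, 18 had a term below 0, 7 were separated per mouse below 0 (against 6.03% of all genes) and 0 above, and 0 were called. With each mouse left out the median was between -0.35 and -0.14. The mean difference between cultures over the list was 0.21, 0.25 and 0.36 in control mice 1 to 3, and 0.12, -0.15 and 0.02 in Pdap1-deficient mice 1 to 3, so the genotypes did not overlap. Of the 34 lists, only this list, the folate one-carbon enzymes and the B cell and T cell markers had means apart between the genotypes. Full separation of 3 mice against 3 has an exact two-sided p of 0.1. In LPS-IL-4 cultures 9 of these 23 genes rose and 1 fell, against 2.79% and 2.12% of all genes tested there. In LPS-BAFF-TGFβ cultures 9 rose and 0 fell, against 0.455% and 0.0071%. Besides *Cth* and *Asns*, *Bcat1*, an aminotransferase of branched-chain amino acids, had a term of -0.48 ± 0.13 (SE), *Aldh18a1*, of proline synthesis, -0.38 ± 0.12, and the alanine aminotransferase gene *Gpt2* -0.55 ± 0.18. *Gpt2* was at 7.82 to 7.91 CPM in control and 44.1 to 73.4 CPM in Pdap1-deficient LPS-IL-4 libraries, and at 4.51 to 5.84 and 44.6 to 62.2 CPM with LPS-BAFF-TGFβ. An exception was *Pck2*, the mitochondrial phosphoenolpyruvate carboxykinase gene, with a term of 0.39 ± 0.17 and log2 fold changes of 2.45 (LPS-IL-4) and 2.07 (LPS-BAFF-TGFβ). *Pck2*, and *Atf4* below, were named after their values were seen.

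The folate one-carbon enzymes had a median term of -0.10, with 11 of 16 genes below 0. Of them 4 were separated per mouse below 0 and 1 above (25.0% and 6.25%, against 6.03% and 7.03% of all genes). Their mean difference between cultures was between 0.15 and 0.21 in controls and between -0.02 and 0.10 in Pdap1-deficient mice, again without overlap. *Shmt2*, the mitochondrial serine hydroxymethyltransferase gene, had a term of -0.45 ± 0.12 (SE) and rose with LPS-BAFF-TGFβ by 0.95 on the log2 scale (edgeR adjusted p = 0.0105), while its change with LPS-IL-4, 0.48, missed the threshold (adjusted p = 0.0649). *Gart*, of purine synthesis, had a term of -0.37 ± 0.13. The cytosolic aminoacyl-tRNA synthetases had a median term of -0.12, with 18 of 23 genes below 0, 8 separated per mouse below 0 (34.8%, against 6.03% of all genes) and 0 above. Their mean difference between cultures, however, was 0.18 to 0.22 in controls and 0.19 in Pdap1-deficient mouse 1, which overlap. *Lars*, *Yars* and *Aars*, for leucine, tyrosine and alanine, had terms of -0.30, -0.28 and -0.26. With each mouse left out the medians of these lists were between -0.19 and -0.04 and between -0.17 and -0.08.

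The amino acid transporters were divided. The list had 10 of 18 genes below 0 and a median term of -0.05 (-0.13 to 0.01 with each mouse left out). Of its genes 5 were separated per mouse below 0 and 1 above (27.8% and 5.56%, against 6.03% and 7.03% of all genes). *Slc7a5*, the large neutral amino acid transporter gene, had a term of -0.40 ± 0.12 (SE), and the glycine transporter gene *Slc6a9* -1.05 ± 0.36. *Slc6a9* was at 0.789 to 1.48 CPM in control and 11.1 to 13.4 CPM in Pdap1-deficient LPS-IL-4 libraries, and at 0.365 to 0.620 and 9.91 to 11.3 CPM with LPS-BAFF-TGFβ. The stress response factors themselves had a median term of -0.14, which was 0.01 without control mouse 3, and 10 of 17 were below 0. *Atf4* rose on the log2 scale by 1.04 ± 0.15 (LPS-IL-4) and 1.19 ± 0.13 (LPS-BAFF-TGFβ) (SE, edgeR adjusted p = 0.00561 and 0.00390), and its term was -0.15 ± 0.13. The pseudokinase gene *Trib3* had a term of -0.97 ± 0.36 and the sestrin gene *Sesn2* -0.43 ± 0.18. The lipoprotein receptor gene *Vldlr* lay on the other side, at 1 read in each control LPS-IL-4 library, so no fold change is given. It was at 7.39, 1.76 and 7.08 CPM in Pdap1-deficient LPS-IL-4 libraries, at 0.715 to 1.58 CPM in control and at 7.23 to 8.87 CPM in Pdap1-deficient LPS-BAFF-TGFβ libraries.

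**Figure D3:**
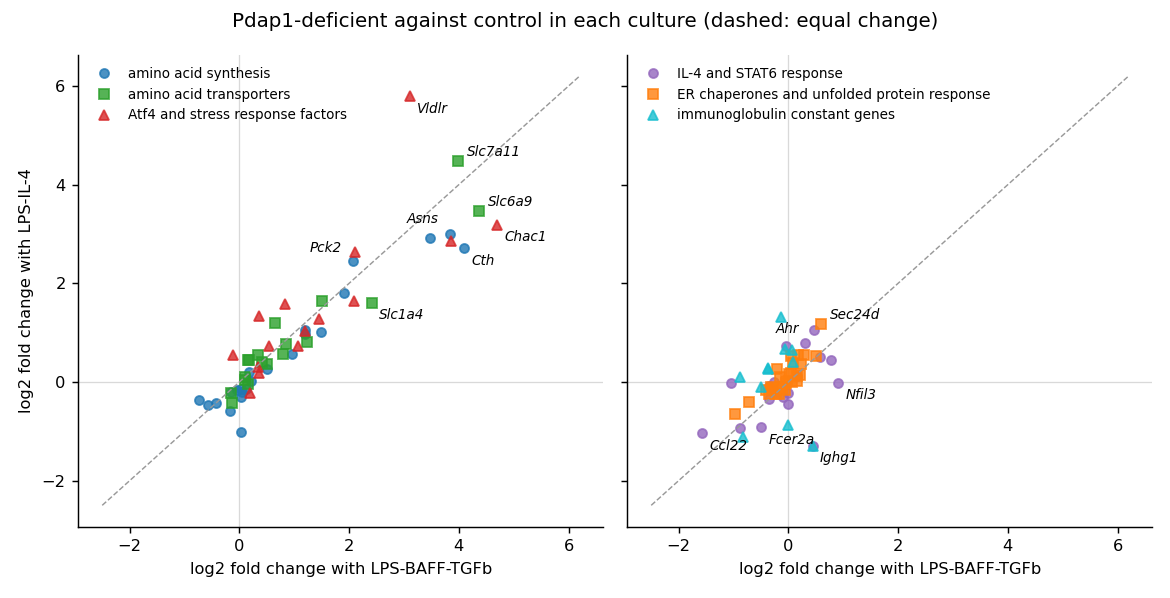
Log2 fold change of Pdap1-deficient against control with LPS-IL-4 (vertical axis) and with LPS-BAFF-TGFβ (horizontal axis) for the genes of 6 lists tested in both cultures, 1 point per gene, with a dashed line where both are equal. *Asns* (3.84, 3.0), *Cth* (4.09, 2.71) and *Chac1* (4.69, 3.19) lie below the line and *Pck2* (2.07, 2.45) above it, and *Vldlr* rests on 1 read per LPS-IL-4 control library.

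The remaining named genes with a term below 0 were, like those above, higher with LPS-IL-4 in control cells. *Serpinb9*, an inhibitor of granzyme B, had the smallest p of the named genes. It was at 40.2, 34.9 and 38.1 CPM in control and 22.3, 40.1 and 43.6 CPM in Pdap1-deficient LPS-IL-4 libraries, which overlap. With LPS-BAFF-TGFβ it was at 2.97, 2.68 and 2.92 CPM in controls and 4.35, 11.1 and 8.32 CPM in Pdap1-deficient libraries, all higher than the controls. Its term was -1.54 ± 0.22 (SE, edgeR adjusted p = 0.135), while neither culture's own change passed the test, at log2 fold changes of -0.11 ± 0.22 and 1.47 ± 0.34. *Clic4*, an intracellular chloride channel gene, was at 605, 600 and 599 CPM in control and 803, 645 and 752 CPM in Pdap1-deficient LPS-IL-4 libraries. With LPS-BAFF-TGFβ it was at 169, 184 and 174 CPM in controls and 373, 348 and 383 CPM in Pdap1-deficient libraries. *Clic4* rose with LPS-BAFF-TGFβ by 1.07 ± 0.11 on the log2 scale (adjusted p = 0.00238), its change with LPS-IL-4 was 0.28 ± 0.12 (adjusted p = 0.186), and its term was -0.79 ± 0.12.

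*Tmem26*, which codes for a membrane protein, rose with LPS-BAFF-TGFβ by 2.16 ± 0.29 (edgeR adjusted p = 0.0137), from 1.33 to 1.58 CPM in controls to 4.92 to 7.43 CPM. With LPS-IL-4 *Tmem26* was at 7.55 to 7.80 CPM in control and 9.12 to 11.2 CPM in Pdap1-deficient libraries, and its term was -1.71 ± 0.33. The genes of 2 activation receptors followed the same order. *Tnfrsf8*, which codes for CD30, was at 81.2 to 90.5 CPM in control and 91.2 to 123 CPM in Pdap1-deficient LPS-IL-4 libraries, and at 0.243 to 0.699 and 1.88 to 3.10 CPM with LPS-BAFF-TGFβ, where the controls held 44, 2 and 5 reads. *Il2ra*, the α chain of the IL-2 receptor, rose with LPS-BAFF-TGFβ by 1.6 on the log2 scale (edgeR adjusted p = 0.0148) and had a term of -1.05 ± 0.26. *Bcl2l11*, the gene of the proapoptotic protein Bim, was at 64.2 to 73.0 CPM in control and 52.5 to 81.3 CPM in Pdap1-deficient LPS-IL-4 libraries, and at 17.7 to 18.9 and 26.3 to 32.4 CPM with LPS-BAFF-TGFβ. Its term was -0.77 ± 0.16. In all 3 of these genes the Pdap1-deficient mice were higher than the controls with LPS-BAFF-TGFβ, and in *Bcl2l11* and *Il2ra* they overlapped with LPS-IL-4.

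*Net1* and *Focad* fell with LPS-IL-4. *Net1*, a guanine nucleotide exchange factor gene, was at 170 to 171 CPM in control and 90.7 to 113 CPM in Pdap1-deficient LPS-IL-4 libraries, a fall by 0.76 ± 0.11 on the log2 scale (SE, edgeR adjusted p = 0.00598). With LPS-BAFF-TGFβ *Net1* was at 75.9 to 79.8 and 55.5 to 79.0 CPM, which overlap, and its term was -0.55 ± 0.13. *Focad*, which codes for focadhesin, fell by 0.59 with LPS-IL-4 (adjusted p = 0.0296), was at a log2 fold change of 0.04 ± 0.14 with LPS-BAFF-TGFβ and had a term of -0.61 ± 0.13. *Pgk1*, of glycolysis, had a term of -0.86 ± 0.18, at 103 to 111 CPM in control and 69.2 to 92.4 CPM in Pdap1-deficient LPS-IL-4 libraries and at 53.4 to 75.9 and 81.9 to 92.0 CPM with LPS-BAFF-TGFβ. The genotypes of *Pgk1* were thus in opposite order in the 2 cultures, and neither culture's change passed the test (adjusted p = 0.0749 and 0.371). *Mllt3*, of the super elongation complex, and *Atp11a*, a phospholipid flippase gene, had terms of -0.83 and -1.41. *Mllt3* was lower in every Pdap1-deficient LPS-IL-4 library and higher in every Pdap1-deficient LPS-BAFF-TGFβ library than in the controls (log2 fold changes of -0.38 and 0.45). *Atp11a* overlapped between the genotypes with LPS-IL-4, at 20.1 to 23.4 and 14.0 to 25.2 CPM, and was at 1.58 to 2.80 and 3.39 to 6.19 CPM with LPS-BAFF-TGFβ. Neither culture's change passed the test for either gene (edgeR adjusted p between 0.088 and 0.516).

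Of the named genes with a term above 0, *Prdm1*, which codes for Blimp-1, the factor that drives plasma cell differentiation, had the smallest p. It was at 18.2, 14.1 and 20 CPM in control and 50.6, 65.1 and 71.2 CPM in Pdap1-deficient LPS-IL-4 libraries, without overlap. With LPS-BAFF-TGFβ it was at 9.09, 6.93 and 7.91 CPM in controls and 10.8, 10.5 and 7.97 CPM in Pdap1-deficient libraries, which overlap. *Prdm1* rose with LPS-IL-4 by 1.82 ± 0.16 on the log2 scale (SE, edgeR adjusted p = 0.000323), its change with LPS-BAFF-TGFβ was 0.28 ± 0.21 (adjusted p = 0.624), and the term was 1.56 ± 0.25 (adjusted p = 0.15). With each mouse left out its term was between 1.31 and 1.75.

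The rest of the plasma cell programme did not follow *Prdm1* as a whole. Of its 18 genes tested, 13 had a term above 0 and 4 were separated per mouse above 0 (against 7.03% of all genes), the median term was 0.17 (0.06 without control mouse 1), and the mean difference between cultures overlapped between the genotypes. *Irf4*, another plasma cell factor, had a term of 0.34 ± 0.12 (SE), with changes of 0.30 and -0.03 on the log2 scale. *Sdc1*, which codes for the plasma cell surface protein syndecan-1, and *Car2* had terms of -1.11 ± 0.49 and -0.61 ± 0.25. *Car2*, a carbonic anhydrase gene, fell with LPS-IL-4 by 1.08 (edgeR adjusted p = 0.00173). Of the 29 tested genes for ER chaperones and the unfolded protein response, 22 had a term above 0, and 5 were separated per mouse above 0 (17.2%, against 7.03% of all genes) and 0 below. Their median term was 0.14, between 0.05 and 0.20 with each mouse left out. *Eif2ak3*, which codes for the ER stress kinase PERK, was at 43.1 to 47.4 CPM in control and 52.2 to 57.1 CPM in Pdap1-deficient LPS-IL-4 libraries and at 42.7 to 52.8 and 39.2 to 41.8 CPM with LPS-BAFF-TGFβ, with a term of 0.49 ± 0.16. *Sec24d*, of the vesicle coat that exports proteins from the ER, rose with LPS-IL-4 by 1.17 (adjusted p = 0.00802) and had a term of 0.58 ± 0.25, and *Ero1lb*, an ER oxidase gene, rose by 0.55 (adjusted p = 0.0300) with a term of 0.38 ± 0.14.

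Several signalling genes with a term above 0 were, like most named genes above 0, lower with LPS-IL-4 in control cells. *Pik3r6*, a regulatory subunit gene of PI3Kγ, was at 3.50 to 4.12 CPM in control and 8.56 to 16.7 CPM in Pdap1-deficient LPS-IL-4 libraries, and at 29.8 to 32.8 and 33.7 to 45.6 CPM with LPS-BAFF-TGFβ. It rose with LPS-IL-4 by 1.67 ± 0.25 (SE, edgeR adjusted p = 0.00678) and had a term of 1.22 ± 0.22. *Cldn12*, a claudin gene, rose with LPS-IL-4 by 2.33 ± 0.33 (adjusted p = 0.00536), from 1.66 to 2.61 CPM to 6.2 to 13.5 CPM, and had a term of 1.52 ± 0.32. *Dab2ip*, a Ras GTPase-activating protein gene, had a term of 2.04 ± 0.45 and was at only 5, 5 and 6 reads in the control LPS-IL-4 libraries. *Irak3*, an inhibitor of Toll-like receptor signalling, *Asb2*, a subunit gene of a ubiquitin ligase, and *Dusp4*, a MAP kinase phosphatase gene, had terms of 0.85, 1.01 and 0.94, and the first and second of these rose with LPS-IL-4 by 1.27 and 1.55. In Pdap1-deficient mice 1 to 3 *Irak3* was at 33.2, 61.5 and 36.9 CPM with LPS-IL-4. *Asb2* was at 13.9, 26.5 and 14.5 CPM there, and *Dusp4* at 20.9, 42.7 and 34.5 CPM. *Tmcc3*, *Psd3* and *Gmfg* rose with LPS-IL-4 by 0.70, 1.05 and 1.0 and had terms of 0.87, 1.02 and 1.20. With LPS-IL-4, Pdap1-deficient mouse 2 was the highest of its genotype in *Pik3r6*, *Irak3*, *Asb2*, *Dusp4* and *Psd3*. It was the lowest in *Cldn12*, *Dab2ip*, *Tmcc3* and *Gmfg*. Without that mouse the terms of *Pik3r6*, *Irak3*, *Asb2* and *Dusp4* were 1.03, 0.76, 0.96 and 0.84. The same mouse had the highest myeloid marker sums, and their part in these terms was not tested.

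*Hdac9*, a class II histone deacetylase gene, was at 93.1, 122 and 89.9 CPM in control and 228, 131 and 191 CPM in Pdap1-deficient LPS-IL-4 libraries, and at 110, 154 and 134 and 165, 100 and 158 CPM with LPS-BAFF-TGFβ. Its term was 0.76 ± 0.13 (SE), although its change with LPS-IL-4 missed the threshold (0.85 ± 0.22, edgeR adjusted p = 0.0678). In both cultures Pdap1-deficient mouse 2 was the lowest of its genotype and control mouse 2 the highest of its own. *Cacna1e*, a calcium channel subunit gene, had a term of 0.85 ± 0.18. Its genotypes overlapped in both cultures (edgeR adjusted p = 0.205 and 0.861), and it was highest in Pdap1-deficient mouse 2 in each. *Cst7*, which codes for cystatin F, rose with LPS-IL-4 by 1.62 ± 0.20 (adjusted p = 0.00291). Its term of 2.61 ± 0.52 rests on 1, 3 and 5 reads in the Pdap1-deficient LPS-BAFF-TGFβ libraries. *Adgre1*, which codes for the macrophage antigen F4/80, had a term of 1.10 ± 0.25, but was at 83.2 and 80.5 CPM in the cultures of Pdap1-deficient mouse 2 against 4.05 to 17.2 CPM in the other LPS-IL-4 libraries and 9.68 to 23.9 CPM in the other LPS-BAFF-TGFβ libraries. The 9 myeloid markers, of which *Adgre1* is one, were highest in the same mouse, and their part in this term was not tested.

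Genes of the response to IL-4 did not move one way. Their median term was -0.04 and took both signs with a mouse left out, from -0.21 to 0.10, with 11 of 23 genes above and 12 below 0. *Nfil3*, a transcription factor gene, had a term of -0.92 ± 0.25 (SE), at 169 to 189 CPM in control and 169 to 194 CPM in Pdap1-deficient LPS-IL-4 libraries and at 6.06 to 8.15 and 9.68 to 17.3 CPM with LPS-BAFF-TGFβ. *Ahr*, the aryl hydrocarbon receptor gene, had a term of 0.76 ± 0.24. *Fcer2a*, which codes for the low-affinity IgE receptor CD23, fell with LPS-IL-4 by 0.92 (edgeR adjusted p = 0.00214), its change with LPS-BAFF-TGFβ was -0.50 (adjusted p = 0.309), and its term was -0.39 ± 0.16. The IL-4 receptor gene *Il4ra* had a term of -0.41 ± 0.16, and the chemokine gene *Ccl22* 0.60 ± 0.24. Of the 5 IL-4 response genes named, 4 had a promoter window and *Ahr* had none. The STAT6 element TTCNNNNGAA, which reads the same on both strands, was in 1 of their 6 windows, that of *Fcer2a*, against 2284 of all 32851 windows (6.95%).

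The immunoglobulin constant genes had a median term of 0.49, which was 0.23 without Pdap1-deficient mouse 2, with 4 of 12 separated per mouse above 0 and 1 below (33.3% and 8.33%, against 7.03% and 6.03% of all genes). *Ighd*, whose product is IgD, rose with LPS-IL-4 by 0.64 on the log2 scale (edgeR adjusted p = 0.00744), from 70.7, 73.5 and 75.7 CPM to 121, 111 and 113 CPM. With LPS-BAFF-TGFβ *Ighd* was at 33.6, 33.1 and 32.5 and 40.5, 33.7 and 29.0 CPM, which overlap, and its term was 0.61 ± 0.15 (SE). The κ light chain gene *Igkc* had a term of 0.65 ± 0.17, at 378 to 535 and 524 to 558 CPM with LPS-IL-4 and 316 to 503 and 287 to 357 CPM with LPS-BAFF-TGFβ. *Ighm*, whose product is IgM, had a term of 0.32 ± 0.14. *Ighg1*, the constant gene of the isotype that IL-4 induces, fell with LPS-IL-4 by 1.29 (adjusted p = 0.00211), from 395, 418 and 404 CPM to 200, 129 and 172 CPM. With LPS-BAFF-TGFβ, which does not direct switching to it, *Ighg1* was at 3.07, 1.70 and 3.29 and 2.26, 6.4 and 2.70 CPM, and its term was -1.65 ± 0.60, or -0.99 without Pdap1-deficient mouse 2. *Ighe* fell with LPS-IL-4 by 2.31 (adjusted p = 0.00357). *Ighg2b*, the constant gene of the isotype that TGFβ favours, was at 540, 612 and 639 CPM in control and 586, 557 and 559 CPM in Pdap1-deficient LPS-BAFF-TGFβ libraries, which overlap, and its term was 0.63 ± 0.61, or 0.12 without Pdap1-deficient mouse 2. Reads of a constant gene include transcripts made from it before switching, and the counts do not separate these from transcripts of switched cells.

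B cell identity genes had a median term of 0.15, with 21 of 26 genes above 0, 7 separated per mouse above 0 (26.9%, against 7.03% of all genes) and 0 below. With each mouse left out the median was between 0.09 and 0.19, but the mean difference between cultures of Pdap1-deficient mouse 1, -0.35, lay within the control range of -0.44 to -0.32. *Ikzf3*, which codes for the B cell transcription factor Aiolos, was at 225 to 231 CPM in control and 264 to 387 CPM in Pdap1-deficient LPS-IL-4 libraries and had a term of 0.49 ± 0.14 (SE), and *Foxo1* had one of 0.41 ± 0.17. In the TGFβ and SMAD pathway 18 of 28 genes (64.3%, against 53.3% of all genes) were above 0, with a median of 0.13 that was between 0.05 and 0.18 with each mouse left out. *Cdkn2b*, a cell cycle inhibitor that TGFβ induces, the receptor gene *Acvr1b* and *Runx1* had terms of 1.77 ± 0.52, 0.50 ± 0.20 and 0.34 ± 0.15. The term of *Cdkn2b* rests on few reads, at 0.413 to 0.938 CPM in Pdap1-deficient LPS-BAFF-TGFβ libraries, and it was not tested within that culture. With LPS-IL-4 its genotypes overlapped (edgeR adjusted p = 0.152). Type I interferon response genes had 30 of 34 terms above 0 and a median of 0.36, which was 0.11 without Pdap1-deficient mouse 3. Of these genes 1 was separated per mouse, above 0 (2.94%, against 7.03% of all genes). The mean differences between cultures of the 6 mice, 1.34 to 1.75 in controls and 1.37 to 2.13 in Pdap1-deficient mice, overlapped.

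Survival, cytokine and receptor genes gave mixed signs. In the BCL2 family, *Pmaip1*, which codes for the proapoptotic protein Noxa, had a term of -0.45 ± 0.17 (SE), like *Bcl2l11*, whereas the survival gene *Mcl1* had one of 0.26 ± 0.12. *Pdk1* and *Eno1*, of glucose metabolism, had terms of -0.42 ± 0.15 and -0.34 ± 0.14, beside that of *Pgk1*. Of the surface receptors, *Cd38* rose with LPS-IL-4 by 1.16 (edgeR adjusted p = 0.0124) and had a term of 0.53 ± 0.16, and the integrin gene *Itgb7* had one of 0.83 ± 0.28, in contrast to *Tnfrsf8* and *Il2ra*. The cytokine gene *Il16* had a term of 0.48 ± 0.13. The inflammatory genes *Il1b*, *Cxcl2* and *Ccl4* had terms of 0.85 ± 0.26, 1.13 ± 0.42 and 2.27 ± 0.68. *Il1b* was in Pdap1-deficient mice 1 to 3 at 0.156, 141 and 18.9 CPM with LPS-IL-4 and at 0.161, 133 and 17 CPM in the other culture, so it was highest where the myeloid markers were highest, and their part was not tested.

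No member of the other lists was called by the blocked edgeR test of all 12 libraries. Ribosome biogenesis genes had 38 of 52 terms below 0 and a median of -0.07 (-0.15 to -0.01 with each mouse left out). Of them 6 were separated per mouse below 0 and 1 above (11.5% and 1.92%, against 6.03% and 7.03% of all genes). Nrf2 targets had 18 of 25 terms above 0 and a median of 0.17, between 0.08 (without Pdap1-deficient mouse 1) and 0.25 with each mouse left out. Cholesterol synthesis genes had 17 of 25 terms below 0, a median of -0.07 (-0.19 to -0.01) and no gene separated. The medians of the BAFF receptor and NF-κB pathway, MHC class II and costimulation, and p53 targets were -0.04, 0.10 and 0.09. The mitochondrially encoded genes had a median of 0.17, which was -0.04 without Pdap1-deficient mouse 2. Of the cell type markers, the 7 T cell genes tested had a median term of 1.04 (0.62 to 1.16 with each mouse left out), and their mean difference between cultures was -0.45 to -0.09 in controls and -0.01 to 0.53 in Pdap1-deficient mice. Their median was -0.02 with at least 10 counts in every library. Most T cell markers were near 0, such as *Cd3e* at 0 to 2.61 CPM and *Cd4* at 0 to 1.45 CPM. Only 2 of the 7 could be tested within LPS-IL-4 and 3 within LPS-BAFF-TGFβ cultures, so these values rest on few reads. The 6 B cell markers had a median term of 0.10, and mean differences of 0.40 to 0.48 in controls and 0.51 to 0.56 in Pdap1-deficient mice. Neither list overlapped between the genotypes, and the part of either in the other terms was not tested.

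**Figure D4:**
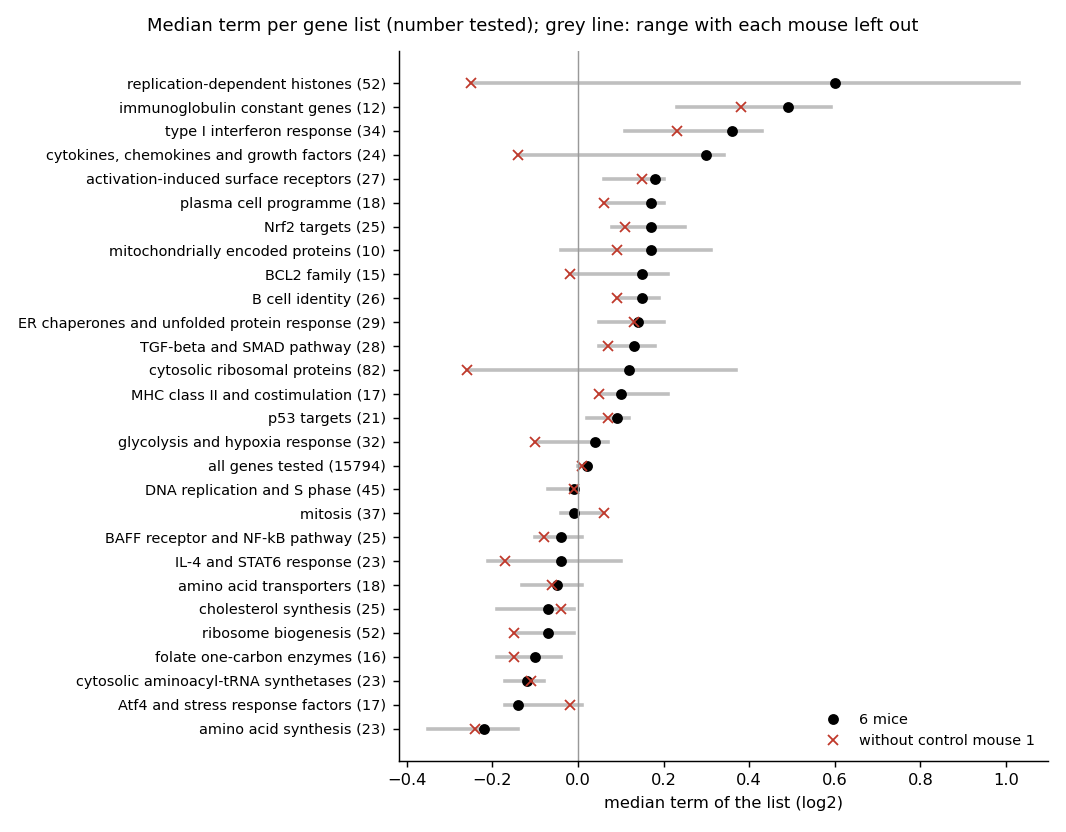
Median term of each gene list on the log2 scale, with the number of genes tested in brackets, as a black point for the 6 mice, a red cross without control mouse 1 and a grey line for the range with each mouse left out. The median of amino acid synthesis stayed below 0 (-0.35 to -0.14), while those of histones (0.60) and ribosomal proteins (0.12) fell below 0 without control mouse 1 (-0.25 and -0.26).

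Some lists turned on control mouse 1. The cytosolic ribosomal protein genes had 60 of 82 terms above 0 and a median of 0.12 with all mice, and 66 of 82 terms below 0 and a median of -0.26 without that mouse. In the fit without it, edgeR called 11 of them below 0, against 0.742% of all genes. Their mean difference between cultures was -1.02 in control mouse 1 against 0.13 and 0.24 in control mice 2 and 3, and it was between -0.14 and 0.00 in the Pdap1-deficient mice. The 82 genes summed to 42700 CPM in the LPS-BAFF-TGFβ library of control mouse 1 and to between 17000 and 25900 CPM in the other 11. Replication-dependent histone genes, whose RNA lacks a poly(A) tail, gave a median term of 0.60 with all mice and of -0.25 without control mouse 1. They summed to 17500 CPM in that library and to between 2760 and 7700 CPM in the others. No direction is therefore given for either list. Of the other lists with 9 or more genes tested, cytokines, chemokines and growth factors, glycolysis and hypoxia, mitosis and the BCL2 family also changed the sign of their median without that mouse, at values between -0.14 and 0.06. DNA replication genes had a median of -0.01, with 22 terms above and 23 below 0, and neither they nor the 37 mitosis genes had a member with an unadjusted p under 0.05.

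**Figure D5:**
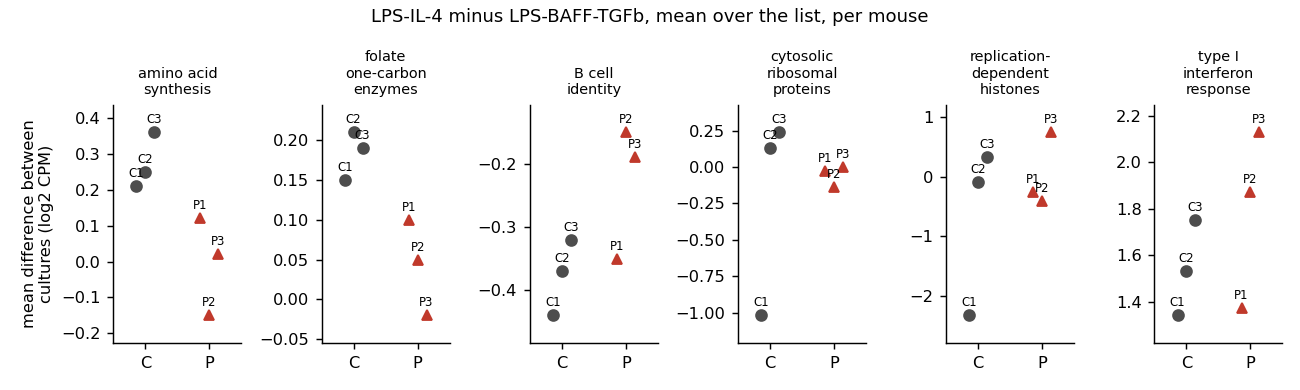
Mean difference in log2 CPM between the LPS-IL-4 and the LPS-BAFF-TGFβ culture over the genes of 6 lists, with 1 point per control (C) or Pdap1-deficient (P) mouse and a vertical scale of its own in each panel. Of the 6 lists plotted, the genotypes are apart for amino acid synthesis and folate enzymes, Pdap1-deficient mouse 1 lies among the controls for B cell identity, and control mouse 1 lies far below the other mice for ribosomal proteins (-1.02) and histones (-2.33).

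The culture response as a whole was compared with genes chosen on 2 control mice and read in the mice not used to choose them, a comparison added after the data were seen. Of genes at least 1 log2 unit higher with LPS-BAFF-TGFβ in both reference mice, which were between 671 and 731 for the 3 pairs of control mice, the median difference in the third control was -1.66, -1.59 and -1.56. In Pdap1-deficient mouse 1 it was between -1.59 and -1.47, in mouse 2 between -1.09 and -1.07, and in mouse 3 between -1.33 and -1.28. Mice 2 and 3 were at smaller differences than each held-out control of these sets. A choice on mice of 1 genotype favours a larger difference in a held-out mouse of that genotype. The order is therefore a description only. Mouse 1 lay nearest to the held-out control of the same gene set, at -1.59 against -1.66, -1.57 against -1.59 and -1.47 against -1.56. Where the genes were instead chosen on 2 Pdap1-deficient mice, the held-out mouse 3 was at -1.57 against -1.90 to -1.80 in the controls and the held-out mouse 2 at -1.21 against -1.78 to -1.67, while the held-out mouse 1, at -1.83, lay within the control range of -1.94 to -1.78. For the 457 to 526 genes higher with LPS-IL-4 in both reference mice, the held-out control was at 1.55 to 1.76 and the Pdap1-deficient mice at 1.5 to 1.76, which overlap. With such genes chosen on 2 Pdap1-deficient mice, the held-out mouse 3 was at 1.77 against 1.54 to 1.65 in the controls. The held-out mouse 2 was at 1.57 against 1.48 to 1.55, and the held-out mouse 1, at 1.29, lay within the control range of 1.25 to 1.34. Mice 2 and 3 of the Pdap1-deficient group were also those with the higher sums of myeloid markers and were male, as was control mouse 2, and the part of either in this order was not tested.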

How the data were processed

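The values used are raw counts for each Ensembl gene, as the authors deposited them, from rRNA-depleted, stranded total RNA. Per the submitters' processing notes and the paper's methods, reads were trimmed with Trim Galore 0.6.1, mapped to GRCm38 with STAR 2.6 and counted with HTSeq 0.9.1 in the PiGx pipeline, and the authors tested them with DESeq2. The strand setting of the counting is not given in the sources used here. The labels also name CH12 cells and an mRNA kit, whereas the methods, followed here, describe a total RNA kit and B cells from spleen. A second table holds the same counts divided by size factors and was not used. Of 55536 features, 23840 had no count, and symbols and positions came from GENCODE M21.

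The term was fitted over 12 libraries with edgeR 4.0.16 (R 4.3.3, quasi-likelihood F test, robust) on counts, with the mouse as a block, stimulation and genotype by stimulation, after filterByExpr on the 4 groups and TMM (factors 0.904 to 1.06), at an adjusted p (Benjamini-Hochberg) under 0.05 over all genes tested. Genotypes were also compared within each culture, in 6 libraries. CPM values are TMM-scaled, and per-mouse differences use log2 CPM with a prior count of 2. A gene was called separated where the 3 mice of one genotype lay above the 3 of the other. Depth was 4579793 to 69500640 counts, and the median biological coefficient of variation was 16.5% for the term. Limits from 0 reads cover counting error only. The pairing comes from the series text, which numbers the mice, and *Xist* and Y-linked genes gave each mouse the same sex in both cultures. The deviations of a mouse's cultures from their group means correlated at -0.39, 0.42 and -0.35 in control mice 1 to 3 and at 0.52, 0.67 and 0.58 in Pdap1-deficient mice 1 to 3, across 9272 genes. Between different Pdap1-deficient mice the values were -0.56 to 0.09. The LPS-IL-4 culture of control mouse 3 correlated at 0.60 with the LPS-BAFF-TGFβ culture of control mouse 1, and that of mouse 1 at 0.33 with that of mouse 3. Control mice 1 and 3 thus correlated higher with each other than with themselves, and their numbering was not tested in another way. No library was a copy of another.

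Named genes were *Pdap1*, in each direction the 15 with the smallest p that kept their sign with each mouse left out (2 pseudogenes above and 1 unnamed model below 0 were passed over), and from each of 34 lists up to 5 genes with the smallest p, or all of a list of up to 15. The members and lists were chosen with earlier results of these data known. Of these, 1 of the 15 genes above 0 and some others are not reported here. Steps were tested on simulated data. Alternatives were DESeq2 1.42.0, limma 3.58.1 (trend and voom), no block, other scaling and filters, thinning, an offset for length and GC content, and each mouse left out. Figures were drawn with Matplotlib.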

Additional observations from a re-analysis of the deposited data

Results flagged for a closer look

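The difference between the cultures passed DESeq2's own Wald test of the term, with the mouse as a block, for 8 genes, none of which passed the main edgeR test of all 12 libraries. DESeq2's terms were -2.86 for *Vegfa*, -0.80 for *Clic4*, 1.54 for *Prdm1*, -1.46 for *Cth*, -1.56 for *Serpinb9*, -0.88 for *Asns* and 0.75 for *Hdac9*, with DESeq2 adjusted p between 1.18e-06 and 0.0447. In the difference between their cultures all 3 Pdap1-deficient mice lay on one side of the 3 controls for these genes, and edgeR's adjusted p were between 0.135 and 0.265.

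The eighth was *Lars2*, a mitochondrial leucyl-tRNA synthetase gene named here after its values were seen, with a DESeq2 term of -4.65 (adjusted p = 0.0111; edgeR adjusted p = 0.764). It took 9.90% of the reads of the LPS-BAFF-TGFβ library of Pdap1-deficient mouse 1, at 110000 CPM, and was at 942 to 18600 CPM in the other 11 libraries. Its control levels varied from 1360 to 8660 CPM with LPS-IL-4 and from 942 to 4780 CPM with LPS-BAFF-TGFβ. Without a filter on low counts, edgeR called *Lars2* with the smallest p, followed by *Gm15564*, *Gm24270* and *CT010467.1*. Whether the reads counted for *Lars2* come from its mRNA was not tested.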

How the results depend on the processing

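For the term, edgeR called 0 genes with the block and 0 without the replicate block, with RLE size factors, with limma trend and voom in its place, with at least 10 counts in every library, after thinning, without immunoglobulin genes, and at an adjusted p under 0.1. DESeq2 called 8 with the block and 6 without it, the length and GC offset with the replicate block 5, and no filter 197 (155 above 0). With each mouse left out the count was 0 to 197, the latter without control mouse 1. Genes with an unadjusted p under 0.05 numbered 516 without Pdap1-deficient mouse 3, 538 without mouse 2, and 2142 without control mouse 1. Of 197 genes that the rule selects, 23 took another sign under at least 1 alternative, such as *Bbc3* (0.82, and -0.02 without control mouse 1) and *Igha* (0.89, and -0.18 without Pdap1-deficient mouse 2), and 0 of the 79 genes described above did. The genes named by p in each direction had to keep their sign with each mouse left out. This 0 was therefore in part fixed by the choice.

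For Pdap1 loss with LPS-IL-4, 741 genes were called, against 1229 by DESeq2, 1694 without a filter and 69 to 1759 with each mouse left out (91, 69 and 79 without control mice 1 to 3, and 1759, 1459 and 163 without Pdap1-deficient mice 1 to 3). With LPS-BAFF-TGFβ, 65 were called, against 174 by DESeq2, 257 without a filter, 133 in a fit of all 12 libraries and 19 to 116 with each mouse left out (116 without control mouse 1, 19 without control mouse 3, 28, 33 and 24 without Pdap1-deficient mice 1 to 3). The numbers name different animals in the 2 genotypes, and the replicate number as a block gave 641 and 48. List medians took another sign in 39 of 543 fits, in 18 of 32 lists, 7 of the 39 in fits without control mouse 1. The causes were not tested.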
